A study of Mus musculus with 4 samples.

Results

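Foxp3 regulatory T cells of the mouse lung were taken from 4 droplet single-cell RNA libraries as cells that had RNA of the T cell receptor complex and RNA of Foxp3. Members were selected on their measured UMI counts of these genes. A cell was a member if at least 2 of Cd3e, Cd3d, Cd3g and Trac had a unique molecular identifier (UMI, 1 counted RNA molecule), Foxp3 had at least 1 UMI, and Cd8a, Cd8b1 and Cd79a had 0 UMIs. Of 53463 cells in which 300 or more genes were found and mitochondrial genes held no more than 20% of UMIs, 344 were members, or 0.643%. The lungs came from mice with an edited Galt gene (GAL, 2 libraries) and from wild-type mice (WT, 2 libraries), and the labels name no other treatment. They give no age, sex, strain, position of the edit or kind of edit, and do not say how many animals a library holds. The whole lung was cut up, digested with collagenase IV and DNase I and made into droplet libraries, with no sorting step named, so shares are of recovered cells. Since separate animals are not stated, the p-values measure only the spread between these libraries, which may be technical.

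Regulatory T cells restrain immune responses of other cells. Their identity rests on the transcription factor Foxp3, which with Ikzf2 (Helios) and other factors maintains high levels of the interleukin 2 receptor alpha chain (Il2ra, CD25) and of the inhibitory receptor Ctla4. In lung and other tissues some carry the interleukin 33 receptor ST2 (Il1rl1) and make amphiregulin (Areg), a growth factor for epithelium. Others resemble resting T cells of blood and lymphoid organs, with the homing receptor Ccr7.

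The libraries held 62406681 and 56218178 UMIs in GAL and 61340929 and 58518235 UMIs in WT. Members had median depths of 3483 and 3502 UMIs in GAL and 2462 and 2802.5 UMIs in WT. Between 104 and 146 cell barcodes were shared by any 2 libraries, at most 1.15% of the smaller one, and 1 member barcode was shared, between GAL 1 and GAL 2. Galt (chr4:41755228-41758695, plus strand), which encodes an enzyme of galactose breakdown, was found in 2 and 6 members of GAL and in 4 and 2 members of WT, too few for a level, and the labels do not say which part of the gene was edited.

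Foxp3 (chrX:7573644-7595245, plus strand, GRCm38), a forkhead factor, was the value that chose the members, so its level is given as a description. Members held 53 and 174 Foxp3 UMIs in GAL and 276 and 61 in WT. Of the 344 members, 208 had 1 Foxp3 UMI, 82 had 2 and 54 had 3 or more, with a highest value of 10. Outside the gate lay 170 further cells with Foxp3 RNA, of which 65 had only 1 of the T cell genes, 62 had none, 27 passed the T cell condition but had Cd8 RNA and 17 had Cd79a RNA (1 of them had both kinds). Foxp3 RNA was rare in cells that should lack it. It was found in 0.0816% and 0.194% of B cells in GAL and 0.0766% and 0.0333% in WT, at median depths of 1553.5 to 2340 UMIs, and in 0.0516% to 0.265% of alveolar macrophages, at 8105 to 8949 UMIs.

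Members just inside the Foxp3 condition and cells just outside it are described by Ctla4 and Ikzf2, with no test. Ctla4 was found in 64.3% and 73.6% (GAL) and 76.6% and 75.0% (WT) of members with 1 Foxp3 UMI, against 100% and 89.1% (GAL) and 81.8% and 85.7% (WT) of members with 2 or more. Just outside, T cells with Cd4 RNA and 0 Foxp3 UMIs had Ctla4 in 23.9% and 47.6% (GAL) and 48.2% and 15.2% (WT). Ikzf2 was found in 57.1% and 69.8% (GAL) and 74.8% and 70.0% (WT) of members with 1 Foxp3 UMI, and in 13.5% and 12.1% (GAL) and 19.2% and 11.5% (WT) of the T cells with Cd4 RNA and 0 Foxp3 UMIs. Among Foxp3 cells with neither Cd8 nor Cd79a RNA, those with only 1 of the T cell genes (8 and 14 cells in GAL, 34 and 6 in WT) had Ctla4 in 50% to 75.0%, and those with none of them (4 and 14 in GAL, 27 and 9 in WT) in 0% to 37.0%.

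The markers of the label other than Foxp3 were checked in the members. Ctla4 RNA was found in 73.7% and 80.8% of members in GAL and 78.6% and 79.4% in WT, against 0.832% to 2.45% of B cells. Il2ra was found in 21.1% and 53.5% of members in GAL and 46.8% and 26.5% in WT, against 0.459% to 1.66% of B cells. Cd4 RNA, sparse in droplet data, was found in 132 of 344 members, or 38.4%, and in 29.4% to 48.5% of the members of a library. Markers of other lymphocytes were summed in the same way for members and for T cells with Cd4 RNA and 0 Foxp3 UMIs. The 8 B cell markers, Ighm and Igkc included, summed to 331 and 477 CPM (UMI counts scaled to a common total per library and population) in GAL and 269 and 424 CPM in WT members, against 162 and 408 CPM in GAL and 133 and 131 CPM in WT Foxp3-negative cells. The members were higher in every library, while Ms4a1 had no UMI in members of any library. The 6 natural killer genes summed to 0 and 8.83 CPM in GAL and 69.1 and 7.85 CPM in WT members, against 150 and 59.3 CPM in GAL and 67.2 and 198 CPM in WT Foxp3-negative cells, so WT 1 alone was not lower in members. The 5 gamma-delta T cell genes summed to 37.5 CPM at most, and Il13, a defining product of group 2 innate lymphoid cells, had UMIs in WT 1 only. The 6 genes of the innate lymphoid list include Il1rl1, Areg and Gata3 of regulatory T cells. They summed to 552 and 912 CPM in GAL and 1306 and 816 CPM in WT members. Foxp3-negative cells were lower in every library, at 239 and 361 CPM in GAL and 369 and 199 CPM in WT. Il5 had UMIs in members of GAL 2 only.

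RNA of non-lymphoid cells was present in the members and unevenly spread over libraries. The 7 alveolar macrophage markers summed to 260.0 and 2184 CPM in GAL and 1762 and 275 CPM in WT, and the 7 dendritic cell markers to 6.50 and 305 CPM in GAL and 166 and 15.7 CPM in WT. The 8 epithelial markers summed to 962 and 115 CPM in GAL and 213 and 133 CPM in WT, and the 8 stromal markers to 871 and 669 CPM in GAL and 672 and 1052 CPM in WT. Members with at least 10 UMIs summed over 48 markers of myeloid, endothelial, stromal and epithelial cells numbered 8 of 38 and 12 of 99 in GAL and 23 of 173 and 2 of 34 in WT. Each comparison was therefore repeated without such cells, a setting chosen after seeing the data.

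Members were common in GAL 2 and WT 1 and rare in GAL 1 and WT 2. They made up 38 of 12148 cells in GAL 1 (0.313%, exact 95% interval 0.221% to 0.429%) and 99 of 11887 in GAL 2 (0.833%, 0.677% to 1.01%). In WT they were 173 of 14012 cells in WT 1 (1.23%, 1.06% to 1.43%) and 34 of 15416 in WT 2 (0.221%, 0.153% to 0.308%). The intervals cover counting error only. The 2 libraries of each group lay apart by far more than that error, and the groups overlapped completely, with both GAL values between the WT values.

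**Figure D1:**
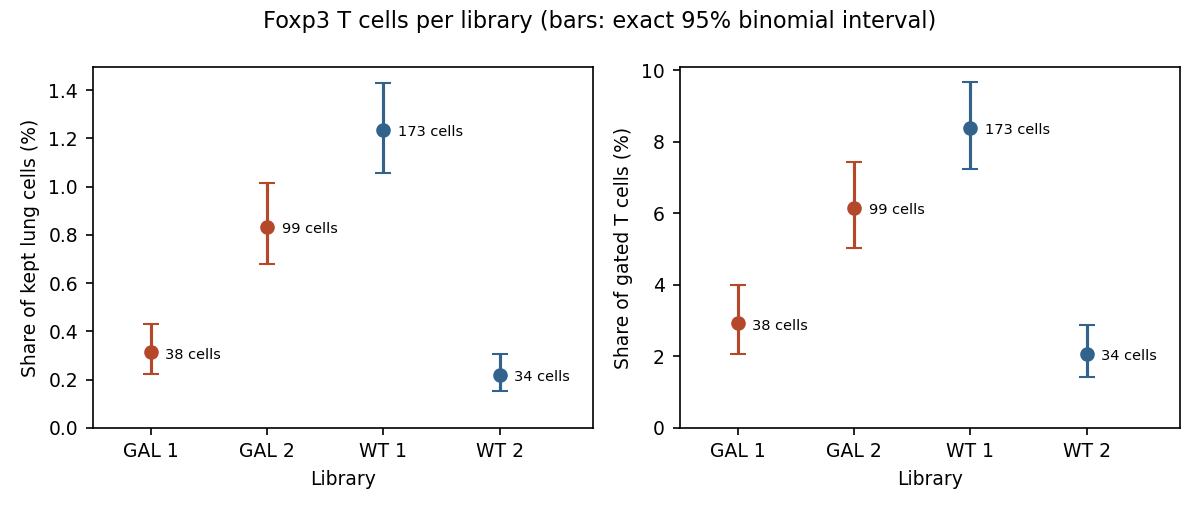
Share of Foxp3 T cells in each library, of all kept lung cells (left, percent) and of T cells passing the same conditions without Foxp3 (right, percent). Points are libraries, bars are exact 95% binomial intervals and labels give the cells counted. GAL 2 and WT 1 lie high and GAL 1 and WT 2 low in both panels.

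The mean share was 0.573% ± 0.368 in GAL and 0.728% ± 0.717 in WT (SD, n = 2 each), a difference of −0.155 percentage points (exact two-sided permutation test, p = 1, where 2 against 2 libraries cannot give a p below 0.333). Among T cells that met the same conditions but for Foxp3, members were 2.92% and 6.15% in GAL and 8.39% and 2.06% in WT. The means were 4.54% ± 2.28 in GAL and 5.23% ± 4.48 in WT, a difference of −0.691 (exact permutation p = 1). The T cells of that gate, which leaves out cells with Cd8 RNA, differed less. They were 10.7% and 13.5% of kept cells in GAL and 14.7% and 10.7% in WT. To take out differences in depth, cells were also thinned to 1000 UMIs, and cells with fewer UMIs were left out. The shares of T cells were then 1.11% and 3.03% in GAL and 4.68% and 0.827% in WT, in the same order. The sign of the group difference turned when GAL 1 or WT 1 was left out, at 0.924 and 2.47 percentage points of T cells.

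To find what RNA accompanies Foxp3, members were set against T cells of the same libraries that had a Cd4 UMI and 0 Foxp3 UMIs (Foxp3-negative Cd4 T cells, 356 and 552 in GAL and 569 and 375 in WT). These can include regulatory cells whose Foxp3 RNA was not sampled, and their share was not measured. Members needed no Cd4 UMI, and 38.4% of them had such a UMI. UMIs were summed per library and population, so that more cells with a gene and more of its RNA per cell cannot be told apart, and the edgeR quasi-likelihood test was fitted with the library as a block. Of 7476 genes tested outside the gate, 271 passed an adjusted p of 0.05 (3.62%), 184 of them higher in members (2.46%) and 87 lower (1.16%). Of the 271, 251 moved the same way in all 4 libraries. The median log2 fold change over all genes was −0.02. Levels are given as CPM scaled within each comparison by the trimmed mean of M values (TMM), and log2 fold changes as members over the other population, ± SE.

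Ikzf2, Ikzf4 and surface receptors of regulatory T cells made up the clearest group. Of 17 tested genes of the regulatory core list, 13 were higher in members, none lower, with a median log2 fold change of 1.49. The list is textbook knowledge of these cells and was drawn up with earlier results of these data known. Ikzf2 (chr1:69531214-69687245, minus strand), which encodes Helios, stood at 775 and 691 CPM in GAL and 689 and 816 CPM in WT members, against 59.4 and 69.4 CPM in GAL and 108 and 88.9 CPM in WT Foxp3-negative Cd4 T cells. No member library came near the other population, and the log2 fold change was 3.18 ± 0.15 (edgeR adjusted p = 2.08e-09). Ikzf4 (Eos), a partner of Foxp3 in gene repression, had 40.8 and 83.5 CPM in GAL and 75.2 and 64.6 CPM in WT members, against 10.5 and 12.3 CPM in GAL and 13.1 and 11.5 CPM in WT Foxp3-negative cells (log2 fold change 2.50 ± 0.27, edgeR adjusted p = 3.21e-05).

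Receptors that take up or sense interleukin 2 and tumour necrosis factor family ligands were higher too. Il2ra (chr2:11642807-11693193, plus strand) stood at 81.6 and 262 CPM in GAL and 319 and 121 CPM in WT members, against 21.7 and 31.2 CPM in GAL and 40.6 and 18.1 CPM in WT Foxp3-negative Cd4 T cells, a log2 fold change of 2.82 ± 0.19 (edgeR adjusted p = 1.89e-07). GAL 2 and WT 1 were the high libraries among members, yet all 4 exceeded every library of the other population. Tnfrsf9 (4-1BB), a costimulatory receptor of activated T cells, was more even at 238 and 239 CPM in GAL and 227 and 194 CPM in WT members, against 28.7 and 27.9 CPM in GAL and 45.0 and 28.8 CPM in WT Foxp3-negative cells (log2 fold change 2.77 ± 0.18, edgeR adjusted p = 1.18e-07). Tnfrsf4 (OX40) rose by a log2 fold change of 1.87 ± 0.13 and Tnfrsf18 (GITR) by 1.42 ± 0.13. Lrrc32 (GARP), which holds latent TGF-beta on the surface of regulatory T cells, had 129 and 149 CPM in GAL and 63.2 and 88.9 CPM in WT members, against 11.9 and 8.50 CPM in GAL and 7.86 and 19.7 CPM in WT Foxp3-negative cells (log2 fold change 3.26 ± 0.30, edgeR adjusted p = 5.7e-06).

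Ctla4 (chr1:60887000-60915832, plus strand), which removes costimulatory ligands from antigen-presenting cells, was higher in members by a smaller factor than Il2ra, and other Cd4 T cells also had its RNA. It stood at 489.5 and 646 CPM in GAL and 729 and 630.0 CPM in WT members, against 122 and 315 CPM in GAL and 335 and 80.6 CPM in WT Foxp3-negative Cd4 T cells, with a log2 fold change of 1.64 ± 0.22 (edgeR adjusted p = 0.000295). Member values were close to each other, while in the other population GAL 2 and WT 1 were higher than GAL 1 and WT 2. Izumo1r (folate receptor 4), Cd83, Capg, Nrp1 and Nt5e (CD73) completed the 13 core genes that passed. The count was 12 to 14 when any 1 library was left out and 13 without cells rich in markers of other types.

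**Figure D2:**
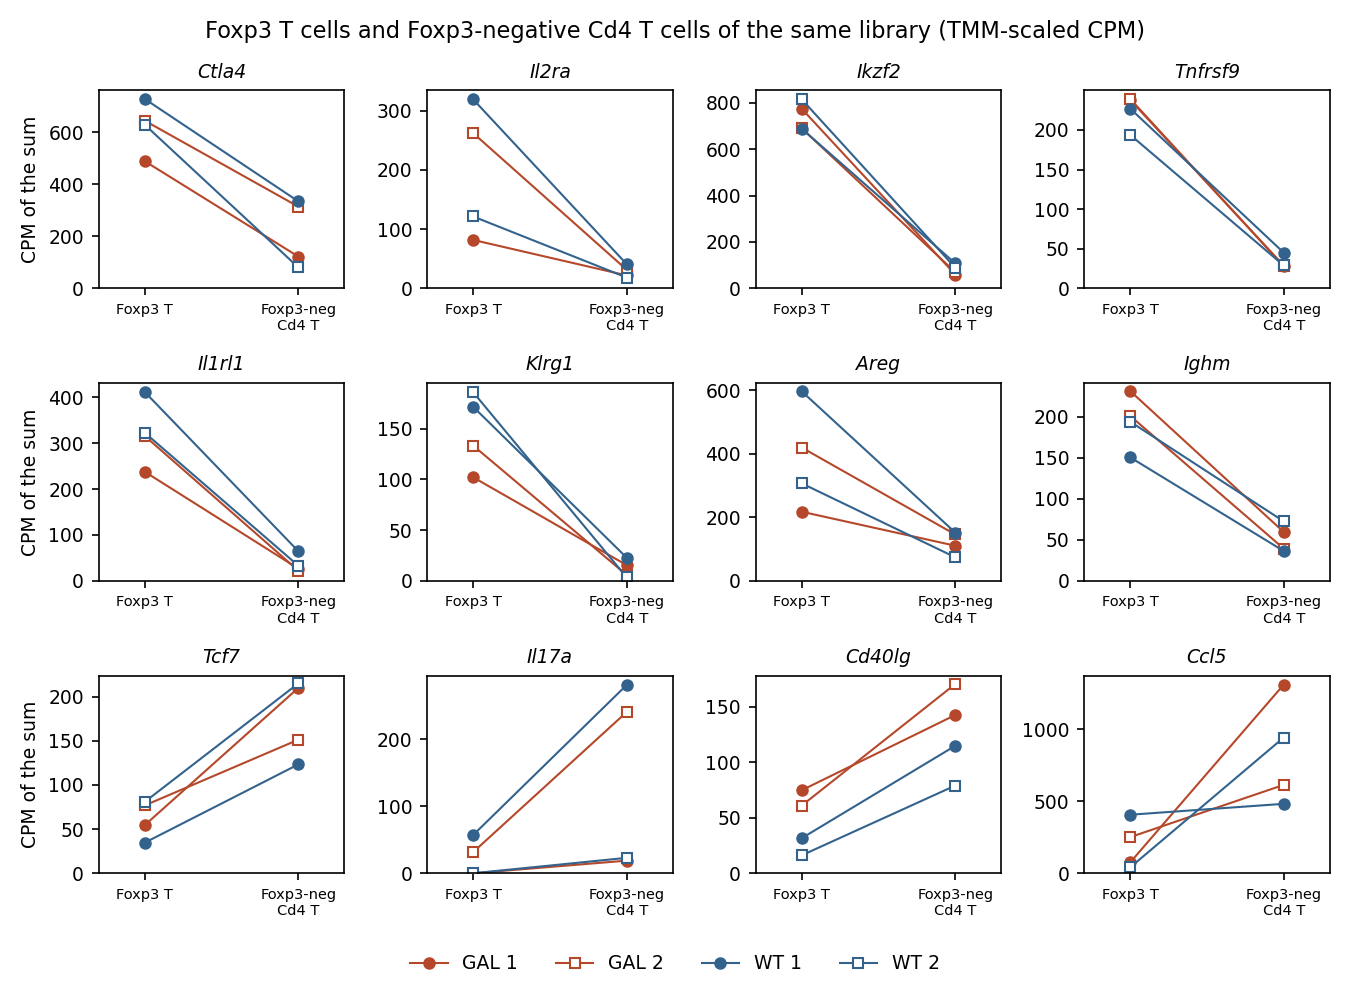
Level of 12 genes in the summed UMIs of Foxp3 T cells and of Foxp3-negative Cd4 T cells (vertical axis, TMM-scaled CPM; each line joins the populations of 1 library). Ikzf2, Il2ra, Tnfrsf9, Il1rl1, Klrg1, Areg and Ighm are higher in Foxp3 T cells in all 4 libraries, and Tcf7, Il17a, Cd40lg and Ccl5 lower.

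Suppressive and repair products were higher in members. Of 12 tested genes of the suppressive effector list, 7 rose and none fell (median log2 fold change 1.26), with 3 to 5 rising when 1 library was left out (3 without GAL 2, 4 without GAL 1 or without WT 1). Areg, the epithelial growth factor, stood at 218 and 419.8 CPM in GAL and 597 and 307 CPM in WT members, against 110.4 and 146 CPM in GAL and 152 and 74.1 CPM in WT Foxp3-negative Cd4 T cells (log2 fold change 1.66 ± 0.16, edgeR adjusted p = 7.22e-06). Penk, which encodes the opioid peptide precursor proenkephalin, had 40.8 and 79.0 CPM in GAL and 70.7 and 24.2 CPM in WT members, against 1.40 and 18.4 CPM in GAL and 11.8 and 3.29 CPM in WT (log2 fold change 2.57 ± 0.34, edgeR adjusted p = 0.000256). Il10, the anti-inflammatory cytokine, was at 0 UMIs in the 38 members of GAL 1 and in 17.2% of the members of GAL 2, 13.3% of WT 1 and 2.94% of WT 2. By a floor of 3 counts, 0 of 38 cells allows a share of cells with an Il10 UMI of up to 7.89%, and the exact binomial interval reaches 9.25%. Neither limits the share of cells that express the gene. Its log2 fold change was 1.91 ± 0.48 (edgeR adjusted p = 0.037), and it did not pass without GAL 1, without GAL 2 or without WT 2. Fgl2, Ebi3, Havcr2 and Gzmb were the other genes of the list that passed. Ebi3 (a subunit of interleukin 35), Fgl2 and Havcr2 rested on few UMIs in the small libraries, with 2, 5 and 2 UMIs in GAL 1.

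Genes of tissue regulatory T cells rose in part. Of 22 tested, 8 passed higher and none lower (median log2 fold change 0.50), with 4 to 9 passing when 1 library was left out (4 without GAL 1). Il1rl1 (chr1:40429570-40465415, plus strand), the interleukin 33 receptor, stood at 238 and 316 CPM in GAL and 412 and 323 CPM in WT members, against 26.6 and 22.2 CPM in GAL and 64.6 and 32.9 CPM in WT Foxp3-negative Cd4 T cells (log2 fold change 3.18 ± 0.18, edgeR adjusted p = 3.79e-08). Klrg1, an inhibitory lectin-like receptor of differentiated lymphocytes, had 102 and 133 CPM in GAL and 171 and 186 CPM in WT members, against 15.4 and 5.67 CPM in GAL and 22.7 and 3.29 CPM in WT (log2 fold change 3.63 ± 0.34, edgeR adjusted p = 7.22e-06). Both were high in every member library, the lowest being GAL 1. Gata3, the factor shared by type 2 T cells and ST2-bearing regulatory cells, rose less, at 122 and 158 CPM in GAL and 211 and 202 CPM in WT members and 83.2 and 111 CPM in GAL and 93.9 and 83.1 CPM in WT Foxp3-negative cells (log2 fold change 0.88 ± 0.17, edgeR adjusted p = 0.00569), and did not pass without WT 1. Itgae (CD103), the epithelial adhesion integrin, S100a4, S100a6, Nfkb1 and Nfil3 were the others that passed. Tbx21, the factor of Th1 cells and the list's most negative gene, did not pass at −1.18 ± 0.51 (edgeR adjusted p = 0.297) and was found in at most 4.62% of the members of any library.

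Homing receptors split between directions, with 4 of 17 higher and 2 lower (median log2 fold change 0.18). Ccr2, a receptor for monocyte-attracting chemokines, had 122 and 289 CPM in GAL and 177 and 210.0 CPM in WT members, against 58.0 and 94.0 CPM in GAL and 76.4 and 47.7 CPM in WT Foxp3-negative Cd4 T cells (log2 fold change 1.49 ± 0.17, edgeR adjusted p = 8.11e-05). Itgae rose by 1.95 ± 0.31, Cxcr4 by 0.66 ± 0.15 and Itgb7 by 0.59 ± 0.13 on the log2 scale. Cxcr6, a receptor of tissue-resident T cells, was lower at 95.2 and 117 CPM in GAL and 155 and 16.2 CPM in WT members, against 165 and 295 CPM in GAL and 193 and 93.8 CPM in WT Foxp3-negative cells (log2 fold change −0.88 ± 0.20, edgeR adjusted p = 0.0216). The egress receptor S1pr1 fell by 0.57 on the log2 scale. Cxcr4, Itgb7, Cxcr6 and S1pr1 each lost the call when at least 2 of the 4 libraries were left out in turn.

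Genes of resting T cells were divided. Of 14 tested, 1 was higher and Satb1, Tcf7, Lef1 and S1pr1 were lower (median log2 fold change −0.13). Tcf7, a factor of naive and memory T cells, had 54.4 and 76.7 CPM in GAL and 34.6 and 80.8 CPM in WT members, against 209.7 and 151 CPM in GAL and 123 and 215 CPM in WT Foxp3-negative Cd4 T cells (log2 fold change −1.48 ± 0.19, edgeR adjusted p = 0.000203). Satb1, a chromatin organiser that is repressed in regulatory T cells, had 394 and 185 CPM in GAL and 73.7 and 250.4 CPM in WT members, against 687 and 391 CPM in GAL and 221 and 747 CPM in WT (log2 fold change −1.24 ± 0.14, edgeR adjusted p = 6.41e-05). Both were lower in members in every library, and in both populations Satb1 was higher in GAL 1 and WT 2 than in GAL 2 and WT 1.

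Cytokines and effector molecules of other T cells were low in members. Of 8 tested, 5 were lower and none higher (median log2 fold change −1.33), and 2 to 5 were lower when 1 library was left out (2 without GAL 1). Il17a, the cytokine of Th17 and gamma-delta T cells, had 0 and 31.6 CPM in GAL and 57.1 and 0 CPM in WT members, against 18.9 and 241 CPM in GAL and 281 and 23.0 CPM in WT Foxp3-negative Cd4 T cells (log2 fold change −2.59 ± 0.24, edgeR adjusted p = 5.7e-06). Its RNA was concentrated in GAL 2 and WT 1 in both populations. Cd40lg, the helper signal to B cells, had 74.8 and 60.9 CPM in GAL and 31.6 and 16.2 CPM in WT members, against 143 and 170.5 CPM in GAL and 115 and 79.0 CPM in WT (log2 fold change −1.56 ± 0.21, edgeR adjusted p = 0.000265). Ifng, Ccl5 and Nkg7, products of Th1 and cytotoxic cells, fell by 1.99, 1.78 and 1.1 on the log2 scale. Ccl5 and Nkg7 lost the call without GAL 1 and without WT 2, and Nkg7 also without GAL 2. Ifng lost it without GAL 1.

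Genes of cytokine signalling, interferon response and survival were next counted, beside the 3.62% of all genes that passed in either direction. Of 20 cytokine signalling genes tested, 2 were higher and 1 lower (median 0.06). Il10ra, the ligand-binding chain of the interleukin 10 receptor, was among the higher ones, and the lower one was Tgfbr2, the type 2 TGF-beta receptor. Tgfbr2 stood at 74.8 and 60.9 CPM in GAL and 70.7 and 96.9 CPM in WT members, against 137 and 163 CPM in GAL and 141 and 142 CPM in WT Foxp3-negative cells (log2 fold change −1.03 ± 0.18, edgeR adjusted p = 0.00253), and Il10ra lost its call when any 1 library was left out. Of 16 interferon response genes, 4 were higher and none lower (median 0.35). Ifi27l2a, an interferon-induced gene, had 1754 and 1176 CPM in GAL and 1576 and 2140.5 CPM in WT members, against 861 and 729.6 CPM in GAL and 776 and 755 CPM in WT Foxp3-negative Cd4 T cells (log2 fold change 1.05 ± 0.11, edgeR adjusted p = 3.21e-05). Gbp7 and Igtp also passed. Of 13 apoptosis and survival genes, 3 were higher, Traf1 and Birc3 among them, and Traf1, an adaptor of tumour necrosis factor receptors, had 408 and 472 CPM in GAL and 365 and 573 CPM in WT members, against 207 and 217 CPM in GAL and 225 and 204 CPM in WT (log2 fold change 1.05 ± 0.13, edgeR adjusted p = 0.000129).

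No gene passed among 21 of T cell receptor signalling, 16 of glycolysis, 15 of cholesterol synthesis, 12 of galactose handling, 11 heat shock, 11 glucocorticoid response and 28 nuclear oxidative phosphorylation genes, whose medians lay between −0.13 and 0.04. Among 19 cell cycle genes H2afz alone passed, at a log2 fold change of 0.55 ± 0.08, and among 13 mitochondrial DNA transcripts mt-Nd2 alone, lower by 0.43. Of 30 ribosomal protein genes 2 were lower, Rpl8 by 0.29. The changes of mt-Nd2 and Rpl8 were lost when any 1 library was left out.

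Further genes with large rises included some that carry no regulatory T cell role among those given above. Ccr3, the eotaxin receptor known from eosinophils, had 20.4 and 40.6 CPM in GAL and 10.5 and 40.4 CPM in WT members, against 0.699 and 0.945 CPM in GAL and 1.75 and 0 CPM in WT Foxp3-negative Cd4 T cells (log2 fold change 4.49 ± 0.63, edgeR adjusted p = 0.000427), from 3 and 18 UMIs in GAL and 7 and 5 in WT. In GAL 2, 1 member held 8 of the 18. Neb, which encodes the muscle protein nebulin, had 47.6 and 165 CPM in GAL and 82.7 and 72.7 CPM in WT members, against 4.89 and 5.67 CPM in GAL and 16.2 and 4.11 CPM in WT (log2 fold change 3.49 ± 0.38, edgeR adjusted p = 3.62e-05), and was found in 4 and 35 member cells in GAL and 40 and 5 in WT. Ankrd55 (2.99 ± 0.35), Hoxb4 (2.24 ± 0.35), Matk (2.21 ± 0.34), Dgat2 (2.21 ± 0.38) and the interferon-induced GTPase Gbp3 (2.18 ± 0.25) also rose on the log2 scale in every library.

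Ighm, the heavy chain gene of immunoglobulin M, was named by its rise against the activated comparison cells described below, and was also higher than in all Foxp3-negative Cd4 T cells. It stood at 231 and 201 CPM in GAL and 150.4 and 194 CPM in WT members, against 59.4 and 39.2 CPM in GAL and 36.2 and 72.4 CPM in WT Foxp3-negative cells (log2 fold change 1.99 ± 0.17, edgeR adjusted p = 4.38e-06). It was found in 47.4% and 46.5% of member cells in GAL and 32.9% and 35.3% in WT, with at most 12 UMIs in a cell. The light chain gene Igkc did not follow, at 0.28 ± 0.26 on the log2 scale (edgeR adjusted p = 0.762), and Cd79b had 1 and 2 UMIs in GAL and 0 in both WT libraries.

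Several of the largest falls were of genes known from other cell types. By the rule for named genes these included Cxcl13 (log2 fold change −6.71 ± 0.57), St3gal6 (−2.95 ± 0.64), Sftpa1 (−2.86 ± 0.42), S100a8 (−2.76 ± 0.17), S100a9 (−2.44 ± 0.30), Pde3b (−2.31 ± 0.37), C1qb (−2.29 ± 0.41) and C1qc (−2.21 ± 0.43), beside Il17a. The neutrophil markers summed to 78.0 and 241 CPM in GAL and 76.8 and 102 CPM in WT members, against 308 and 1889 CPM in GAL and 376 and 178 CPM in WT Foxp3-negative Cd4 T cells. Without cells rich in markers of other types, S100a8 and S100a9 lay at −0.13 and −0.15 and did not pass, and Cxcl13, Sftpa1, C1qb and C1qc had too few counts to be tested. In that setting 442 genes passed in all, of which 230 were among the 271.

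A second comparison population was narrowed to activated cells, to compare members with T cells that are not resting. Foxp3-negative Cd4 T cells with Cd44 RNA and without RNA of markers of resting cells, Ccr7 among them (activated Cd4 T cells) numbered 92 and 214 in GAL and 247 and 47 in WT. Alveolar macrophages also had Cd44, in 84.3% to 90.4% of cells. Cells rich in markers of other types made up 37.0% and 11.2% of the activated cells in GAL and 21.5% and 14.9% in WT. Of all Foxp3-negative Cd4 T cells they made up 20.8% and 10.1% in GAL and 15.6% and 9.07% in WT. The part of such RNA in this gate was not tested. Of 5335 genes tested, 165 passed (3.09%), 116 higher in members (2.17%) and 49 lower (0.918%). Of the higher calls, 96 were also called against all Foxp3-negative Cd4 T cells, which is 82.8% of the 116 and 52.5% of the 183 genes called there that were outside this gate. Of the lower calls, 30 were shared, 61.2% of 49 and 34.5% of 87. Both comparisons use the same member sums, so these shares are a description.

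Against activated cells 10 of 16 regulatory core genes tested were higher and none lower, with a median log2 fold change of 1.5. Capg, Nrp1 and Nt5e, higher against all Foxp3-negative Cd4 T cells, did not pass here. Il2ra had 87.4 and 274 CPM in GAL and 339.7 and 129 CPM in WT members, against 33.3 and 19 CPM in GAL and 31.2 and 21.7 CPM in WT activated Cd4 T cells (log2 fold change 3.10 ± 0.34, edgeR adjusted p = 0.000632), and Ikzf2 lay at 3.03 ± 0.28, Tnfrsf9 at 2.87 ± 0.20 and Ctla4 at 1.38 ± 0.22 on the log2 scale. Of the suppressive list Areg and Penk passed among 10 tested, and of the tissue list Il1rl1, Klrg1 and Itgae among 20. Izumo1r, the folate receptor of these cells, had 197 and 156 CPM in GAL and 219.5 and 129 CPM in WT members, against 79.8 and 28.0 CPM in GAL and 26.8 and 54.3 CPM in WT activated cells (log2 fold change 2.18 ± 0.30, edgeR adjusted p = 0.00292). S100a4 and S100a6, raised against all Foxp3-negative cells, did not pass here.

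Among resting genes Lef1 changed sides with the population it was set against. Lef1 and Foxp1 were higher and Tcf7 was lower among 11 tested, where Lef1 had been lower against all Foxp3-negative Cd4 T cells. The comparison population was gated against such markers, so it holds fewer resting cells by construction. Lower against activated cells were Il17a, Cd40lg (−1.91 ± 0.26), Fasl, the death ligand of effector T cells (−2.11 ± 0.42), Tnfsf11, which encodes RANKL (−2.02 ± 0.35), and the immediate early genes Jun and Fos. Ighm was higher again, at 248 and 211 CPM in GAL and 160.2 and 207 CPM in WT members, against 53.2 and 14.5 CPM in GAL and 25.1 and 54.3 CPM in WT activated cells (log2 fold change 2.72 ± 0.28, edgeR adjusted p = 0.00055). Phlpp1, Coq8a and Swap70 rose in this comparison by 2.55, 2.35 and 2.29. S100a8, G0s2, Ccl7, Hspb1, Pmp22, Cavin2 and Emp2, of which several are markers or products of myeloid and vascular cells, fell. The count of calls here moved with single libraries, at 45 without GAL 1, 75 without WT 2, 87 without WT 1 and 283 without GAL 2.

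Members differed among libraries in how resting or tissue-like their RNA was. The 15 genes of resting T cells summed to 4842 and 2597 CPM in GAL and 2080 and 3735 CPM in WT members. The 25 genes of tissue and effector regulatory cells summed to 6948 and 10297 CPM in GAL and 11012 and 7463 CPM in WT. GAL 1 and WT 2, with the fewest members, were the high libraries for resting genes and the low ones for tissue genes. Foxp3-negative Cd4 T cells had the same order of high and low libraries, with resting sums of 4701 and 3115 CPM in GAL and 2381 and 4948 CPM in WT and tissue sums of 4185 and 8154 CPM in GAL and 7908 and 3397 CPM in WT.

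**Figure D3:**
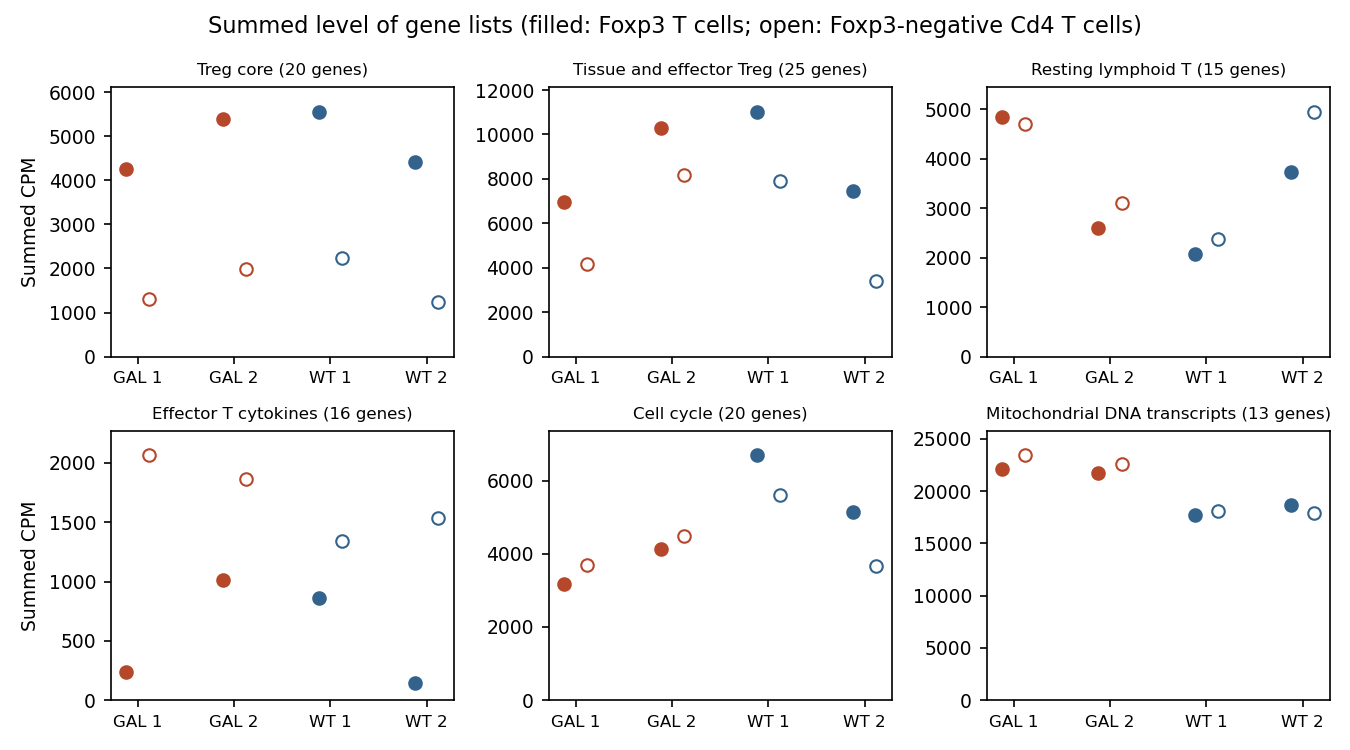
Summed CPM of 6 gene lists in Foxp3 T cells (filled) and Foxp3-negative Cd4 T cells (open) of each library. Resting genes are high in GAL 1 and WT 2 and tissue genes in GAL 2 and WT 1 in both populations, while the regulatory core list separates the populations in every library and mitochondrial DNA transcripts separate GAL from WT. The core sums include Foxp3, at 344 to 479 CPM in members and 0 in the other cells by the gate. They were 4244 and 5388 CPM in GAL and 5548 and 4410 CPM in WT members. Foxp3-negative cells had 1317 and 1989 CPM in GAL and 2231 and 1238 CPM in WT.

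A shift in the same direction was seen cell by cell for some genes, picked after their values were seen. Klf2, a factor of quiescent circulating T cells, was found in 84.2% and 46.5% of members in GAL and 37.6% and 70.6% in WT, and after thinning to 1000 UMIs in 42.1% and 12.1% in GAL and 15.9% and 39.4% in WT. Ccr7, the lymph node chemokine receptor, was found in 52.6% and 27.3% (GAL) and 23.1% and 55.9% (WT), thinned 44.7% and 11.1% (GAL) and 12.2% and 45.5% (WT). B cells, which express both genes, and alveolar macrophages also had them, so these 2 shares have no clean negative population. S100a4, a calcium-binding protein of effector T cells, ran the other way at 52.6% and 80.8% in GAL and 88.4% and 67.6% in WT, thinned 31.6% and 64.6% in GAL and 73.8% and 57.6% in WT, against 4.57% to 10.4% of B cells and 36.3% to 49.2% of alveolar macrophages unthinned. GAL 2 and WT 1, where S100a4 was found most often, also had the higher sums of the 7 alveolar macrophage markers in members, at 260 and 2184 CPM in GAL and 1762 and 275 CPM in WT, and their part in the S100a4 shares was not tested.

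Some receptors followed the same libraries. Il2ra was found after thinning in 7.89% and 26.3% of members in GAL and 26.2% and 9.09% in WT, and Il2rb, the signalling chain for interleukin 2, in 15.8% and 33.3% in GAL and 39.6% and 9.09% in WT. Maf, a factor that drives Il10, was found in 21.1% and 44.4% in GAL and 50% and 24.2% in WT. By contrast Ctla4 differed little, at 47.4% and 39.4% in GAL and 50.6% and 48.5% in WT, as did Ikzf2, at 42.1% and 49.5% in GAL and 51.8% and 42.4% in WT. Il1rl1 was lowest in GAL 1, at 15.8% and 23.2% in GAL and 25.6% and 27.3% in WT. Klrg1 and Gata3 of the tissue list did not follow these libraries. Klrg1 was found in 7.89% and 13.1% in GAL and 15.9% and 21.2% in WT. Gata3 was found in 13.2% and 12.1% in GAL and 20.1% and 9.09% in WT. Each of these genes was found in at most 6.37% of the B cells of any library, unthinned.

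**Figure D4:**
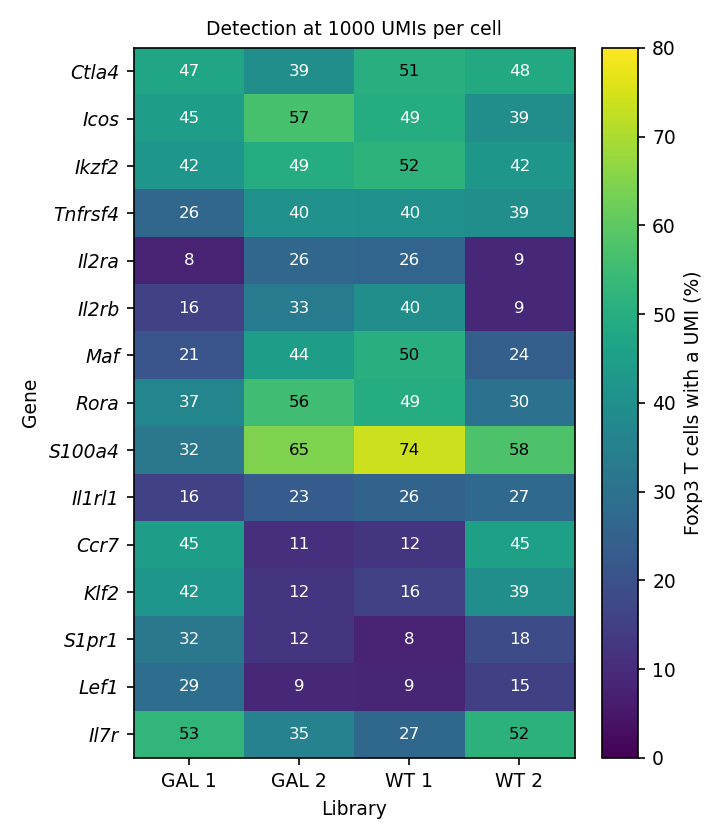
Percent of Foxp3 T cells with a UMI of each gene after thinning to 1000 UMIs, by library, with cells under 1000 UMIs left out. Ctla4, Icos and Ikzf2 are found at like shares in the 4 libraries, Il2ra, Il2rb, Maf and S100a4 are highest in GAL 2 and WT 1, and Ccr7, Klf2, S1pr1, Lef1 and Il7r in GAL 1 and WT 2.

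GAL and WT were then compared within the members. Of 4129 genes tested, 0 passed an adjusted p of 0.05 by the edgeR quasi-likelihood test (0%), with 108 at an unadjusted p under 0.05 and 1 called by DESeq2. The groups did not overlap for 1202 genes, or 29.1%. Foxp3 stood at 389 and 416 CPM in GAL and 449.5 and 523 CPM in WT (a gate gene, given as a description), Ctla4 at 528 and 684 CPM in GAL and 790.0 and 668 CPM in WT and Il2ra at 88.0 and 278 CPM in GAL and 345 and 129 CPM in WT. For Ctla4 the log2 fold change was −0.26 ± 0.30 and for Il2ra −0.37 ± 0.56, and for both genes the GAL and WT libraries overlapped. The 95% interval of the edgeR estimate for Ctla4 ran from −0.95 to 0.42. The count of calls moved with single libraries, at 18 without GAL 1 and 29 without GAL 2, where GAL is a lone library assumed to vary like WT, and 0 without either WT library.

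Cell cycle genes had negative fold changes throughout, and none passed the test. All 13 cell cycle genes tested had a negative log2 fold change, with a median of −0.94, where the median over all 4129 genes was 0.01 and 50.7% were positive. The groups did not overlap for 8 of the 13, where the share over all genes was 29.1%, and genes of this list share cells. Birc5 (survivin), which guards chromosome segregation, had 7.33 and 35.9 CPM in GAL and 125 and 111 CPM in WT, a log2 fold change of −2.14 ± 0.51 (edgeR adjusted p = 1). The chromatin protein Hmgb2 had 887 and 1211 CPM in GAL and 1984 and 1877 CPM in WT (−0.87 ± 0.30), and the replication topoisomerase Top2a 22.0 and 81.3 CPM in GAL and 318 and 77.1 CPM in WT (−1.86 ± 0.66). Hmgb2 and Birc5 were lower in both GAL libraries than in both WT libraries, while for Top2a GAL 2 lay above WT 2. Cks1b, a cyclin-dependent kinase cofactor named by its p, had 14.7 and 35.9 CPM in GAL and 94.5 and 137 CPM in WT (−1.89 ± 0.47).

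**Figure D5:**
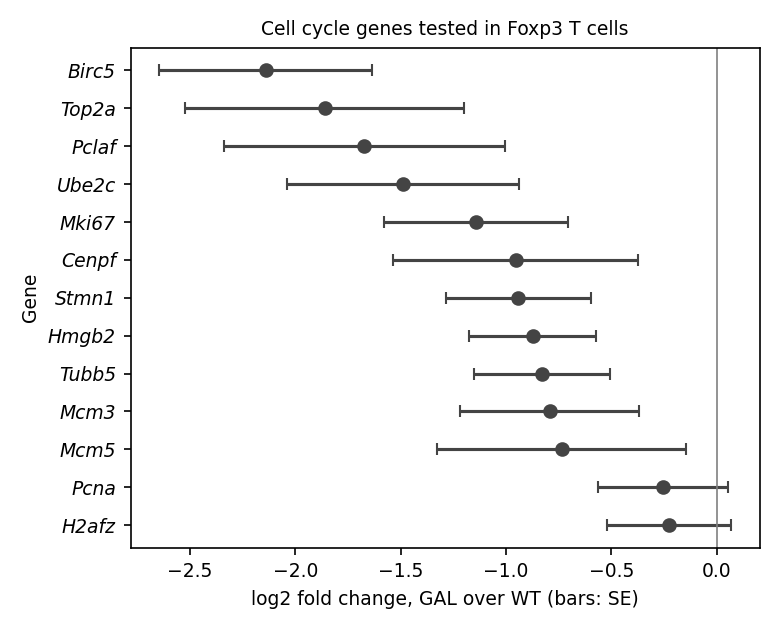
Log2 fold change, GAL over WT, of the 13 cell cycle genes tested in Foxp3 T cells (points) with standard errors (bars). All 13 lie below 0, from −2.14 for Birc5 to −0.23 for H2afz, and none passed the test after adjustment.

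These genes came from few cells. Mki67, the proliferation marker, was found in 4 and 12 members in GAL and 31 and 4 in WT, which was 10.5% and 12.1% of the GAL members and 17.9% and 11.8% of the WT members. Top2a was found in 2 and 10 members in GAL and 34 and 2 in WT. The summed cell cycle level was 3178 and 4127 CPM in GAL and 6687 and 5132 CPM in WT members, and 3683 and 4498 CPM in GAL and 5604 and 3670 CPM in WT Foxp3-negative Cd4 T cells, where the groups overlapped. When 1 library was left out all tested cell cycle genes stayed negative, with medians from −1.21 to −0.46, and without cells rich in markers of other types all 11 tested were negative. Among members with at least 2 Foxp3 UMIs, 9 of 12 were negative.

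Mitochondrial DNA transcripts mostly had positive fold changes, and none passed. Of 12 tested, 11 were positive with a median log2 fold change of 0.35, and the 13 genes summed to 22087 and 21692 CPM in GAL and 17689 and 18637 CPM in WT members. The groups did not overlap in that sum, nor in Foxp3-negative Cd4 T cells, at 23416 and 22567 CPM in GAL and 18137 and 17897 CPM in WT. The cytochrome oxidase subunit mt-Co3 had 3731 and 3510.0 CPM in GAL and 2225 and 2185 CPM in WT (0.71 ± 0.29, unadjusted p = 0.037, edgeR adjusted p = 1), and the complex I subunit mt-Nd3 125 and 153 CPM in GAL and 76.6 and 51.4 CPM in WT (1.04 ± 0.36). Nuclear genes of the same respiratory complexes did not share the direction, with 3 of 28 positive and a median of −0.21. The median share of mitochondrial UMIs over all kept lung cells was likewise 2.30% and 2.25% in GAL and 1.82% and 1.78% in WT.

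For resting genes the sign of the median depended on which libraries entered. Of 12 tested, 11 were positive in GAL with a median of 0.53, but the median was 0.03 without GAL 1 and −0.10 without WT 1. Neither the regulatory core (9 of 18 positive, median 0.00), the suppressive list (6 of 11, median 0.02) nor the tissue list (8 of 20, median −0.08) was mostly of 1 sign. The core count includes Foxp3, a gate gene. These medians moved with single libraries too. In that order, they were 0.18, 0.47 and 0.24 without GAL 1 and −0.31, −1.08 and −0.46 without GAL 2. Without WT 1 they were 0.32, 0.55 and 0.33, and without WT 2 −0.09, −0.16 and −0.20. Lrrc32 had 139 and 158 CPM in GAL and 68.4 and 94.3 CPM in WT (0.96 ± 0.35, edgeR adjusted p = 1), the core gene with the smallest p, and Gzmb, a cytotoxic granule protease, 14.7 and 62.2 CPM in GAL and 147 and 111 CPM in WT (−1.53 ± 0.50).

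Genes of fibroblasts were among those with the smallest p. Inmt, a methyltransferase of lung fibroblasts, had 403 and 187 CPM in GAL and 45.6 and 60.0 CPM in WT (2.50 ± 0.47, edgeR adjusted p = 1), and Dcn (decorin), a matrix protein of fibroblasts, 22.0 and 19.1 CPM in GAL and 103 and 583 CPM in WT (−3.93 ± 0.90). Single cells held much of this RNA. Of the Dcn UMIs, 67 of 68 in WT 2 and 39 of 63 in WT 1 lay in 1 cell each, and of the Inmt UMIs, 38 of 55 in GAL 1 and 39 of 78 in GAL 2. Sod3, Id3, Heg1 and Plpp3 were the other genes with the smallest p in that ranking among those higher in GAL, and Aebp1 and Apoe among those lower. Their lack of overlap was a condition of the choice.

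Whether members stood apart from Foxp3-negative Cd4 T cells by different amounts in GAL and WT was tested as an interaction. Of 8515 genes, 39 passed (0.458%). The log2 fold change of members over Foxp3-negative cells was higher in GAL for 31 (0.364%) and lower for 8 (0.094%). A higher value can be a smaller deficit of members, as members of 3 libraries had less Lyz2 than Foxp3-negative cells. None of the regulatory core, suppressive or tissue genes was among the 39. The cell cycle genes Hmgb2 and Top2a were, and so were Id3 and Igfbp4 of the resting list. Few members held the Id3 and Igfbp4 RNA, with 20 of 24 Id3 UMIs in GAL 1 and 19 of 36 in GAL 2 in 1 cell each, and 26 of 37 Igfbp4 UMIs in WT 1 and all 18 in WT 2. Several others were products of macrophages, dendritic cells or stroma. Saa3, an acute phase protein, had 118 of its 119 UMIs of GAL 2 in 1 member, and Chil3, an alveolar macrophage product, had 233 of 621 in GAL 2 and 264 of 787 in WT 1 in 1 member each. Without cells rich in markers of other types 0 genes passed, and DESeq2 called 3. Dcn, Chil3 and Lyz2, which are among the 39, are themselves markers of that setting, so their loss was partly built in.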

How the data were processed

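The authors deposited 1 table of raw UMI counts per library (genes by cell barcodes). Libraries were made with the SeekOne Digital Droplet kit, per the labels' protocols, and the submitters' processing notes name fastp, STAR, Seurat and the builds GRCm38 and mm10, with no versions. The lowest deposited barcode had 500 UMIs. Barcodes with at least 300 genes and at most 20% mitochondrial UMIs were kept. No doublets were removed. Scrublet (scanpy 1.11.5) did not work with its automatic threshold in GAL 1, where it marked 0.00823% of cells. With the highest scores marked at an assumed 0.8% per 1000 cells it marked 1 and 6 members in GAL and 14 and 2 in WT, and removing marked cells was an alternative.

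The members, gene lists and tests were chosen with earlier results of these data known. UMI counts were summed per library and population. Gate genes were left out of counts of calls between populations and in the interaction, but not between GAL and WT. The edgeR 4.0.16 quasi-likelihood test (R 4.3.3, filterByExpr, TMM) with Benjamini-Hochberg adjustment over all tested genes was checked on simulated counts. GAL and WT were compared without covariates, and members and Foxp3-negative cells with the library as a block. A difference was called at an adjusted p under 0.05. DESeq2 1.42.0 was an alternative. Named genes were Foxp3, Ctla4, Il2ra, Cd4 and Galt, the 15 largest and 10 smallest fold changes called in the same direction in all libraries at 20 CPM or more, the 5 smallest p per direction where fewer were called, and up to 6 called members of each list by p. The 5 smallest p were taken among genes whose GAL and WT libraries did not overlap, at a mean of 20 CPM or more. Genes singled out from the detection shares and the interaction were chosen after their values were seen. The setting without cells rich in markers of other types left out cells with at least 10 UMIs over 48 markers and was added after seeing the data. List and marker sums and depths are unscaled. Intervals are exact binomial (Clopper-Pearson) and cover counting error only. Some genes that the rule names are not reported here.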

Additional observations from a re-analysis of the deposited data

Results flagged for a closer look

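The difference between Foxp3 T cells and Foxp3-negative Cd4 T cells was not the same in GAL and WT for 39 of 8515 genes by the edgeR quasi-likelihood interaction test. Values here are the log2 fold change of Foxp3 T cells over Foxp3-negative cells in GAL minus that in WT. Of the genes named above, it was positive for Sod3 (3.13), Inmt (2.39), Id3 (2.28) and Plpp3 (2.25). It was negative for Dcn (−4.03), Aebp1 (−3.52), Igfbp4 (−2.24), Apoe (−1.60), Top2a (−1.55) and Hmgb2 (−0.84). A negative value can be a larger gap in GAL. Apoe was lower in Foxp3 T cells in all 4 libraries, at 79.8 and 110 against 381 and 463 CPM in GAL. In WT it was at 198 and 268 against 287 and 382 CPM.

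Hmgb2 was at 804 and 1139 CPM in GAL and 1826 and 1724 CPM in WT Foxp3 T cells, and at 1303 and 1552 CPM in GAL and 1718 and 1219 CPM in WT Foxp3-negative Cd4 T cells. It was found in 27 and 78 members in GAL and 130 and 30 in WT. Dcn, the fibroblast gene, was at 19.9 and 18.0 CPM in GAL and 94.4 and 535 CPM in WT Foxp3 T cells, and 1 cell held 67 of the 68 UMIs of WT 2. Id3 was at 159.5 and 81.0 CPM in GAL and 25.5 and 23.6 CPM in WT Foxp3 T cells, and at 82.0 and 49.0 CPM in GAL and 63.2 and 90.2 CPM in WT Foxp3-negative cells. In members 1 cell held 20 of the 24 Id3 UMIs of GAL 1 and 1 cell 19 of the 36 of GAL 2. No gene passed once cells rich in markers of other types were left out of both populations, which removed 21.1% and 12.1% of members in GAL and 13.3% and 5.88% in WT. Dcn is itself one of those markers.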

How the results depend on the processing

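No paired analysis was possible because the labels give GAL and WT no shared replicate numbers. For Foxp3 T cells against Foxp3-negative Cd4 T cells the library was a block in the design, and without that replicate block 85 genes passed, all of them among the 271, and 61 passed against activated cells, 60 of them among the 165. Without the block 29 of the 63 named calls were kept against all Foxp3-negative cells, and none changed sign under any setting tried. The comparison cells needed a Cd4 UMI, while 38.4% of members had such a UMI. With only those 132 members, 64 genes were higher and 104 lower, and 110 of the 271 calls recurred. Of the 63 named calls 54 could be tested there and 36 were kept. With no Cd4 condition on the comparison cells, 250 of the 271 calls and 61 of the 63 were kept.

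Against Foxp3-negative Cd4 T cells 464 genes passed with no filter on low counts, 168 for members with a Cd4 UMI, 442 without cells rich in markers of other types, 503 with no Cd4 condition on the comparison cells and 142 to 236 without 1 library. Against activated cells these were 435 with no filter, 109 by DESeq2, 75 for members with a Cd4 UMI, 297 without cells rich in other markers and 45 to 283 without 1 library. Between GAL and WT 16 passed with no filter, 1 by DESeq2 and 0 to 29 without 1 library. For the interaction 3 passed by DESeq2, 12 with doublets removed, 4 for members with at least 2 Foxp3 UMIs, 25 for members with a Cd4 UMI, 0 without cells rich in other markers and 22 to 105 without 1 library. The difference in the share of kept cells ran from −0.662 to 0.352 percentage points and that of T cells from −3.86 to 2.47 without 1 library, and the difference in the share of T cells was 0.145 for members with a Cd4 UMI.

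Signs of uncalled log2 differences turned as follows. Between GAL and WT the values without 1 library ran from −1.53 to 0.62 for Il2ra, from −0.37 to 0.35 for Cd4, from −1.1 to 0.11 for Areg and from −0.17 to 0.70 for Tgfb1. Cd4 was −0.033 for members with a Cd4 UMI, and Apoe was 0.39 with doublets removed and 0.025 for members with at least 2 Foxp3 UMIs. In the interaction they ran from −1.49 to 0.28 for Ctla4, from −1.04 to 0.17 for Il2ra and from −0.10 to 1.60 for Galt, and Il2ra was 0.067 with doublets removed, 0.073 for members with at least 2 Foxp3 UMIs and 0.48 without cells rich in other markers. The cause was not tested. GAL 1 and WT 2 held 38 and 34 members, which limits every comparison.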
